A study of Caenorhabditis elegans with 5 samples.

Results

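Space flight and clinorotation are the real and the simulated microgravity of this study, and the arrays of these 2 worm populations, 2 of the 5 arrays in the series, were compared directly. Each array was hybridised with labelled RNA from 100000 whole *Caenorhabditis elegans* worms of mixed stages, wild-type Bristol N2. Cultures were held at 20 °C for 10 days in liquid CeMM, a medium of defined chemical content. The space flight group is labelled micro gravity. The clinorotation group is labelled with a random gravity vector, which on the ground is produced by turning the culture. Of the remaining 3 groups, the operation-site control and the Tsukuba space center control were kept at 1 G, and hypergravity is labelled both 3 G and 10 G. No label gives the place of the clinorotation culture. Every group was read as pooled worms on 1 array, so no value below has a replicate, no p-value is attached to a gene, and the difference between the 2 ground controls serves as the scale.

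Clinorotation turns a culture so that no direction stays down for long. It averages the direction of gravity over time but does not remove its force, and it includes none of the launch, transport and landing that a flight culture goes through. A mixed-stage culture also holds larvae, which moult and lay down new cuticle collagens, and adults, which make sperm, oocytes and yolk. RNA from such a culture follows its mixture of ages as well as its treatment. In bulk RNA, fewer cells or animals of a kind and less RNA per cell cannot be told apart.

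Signals have arbitrary units. All 5 arrays were first quantile scaled, and any signal below a floor of 24.9, the percentile 40 of the scaled signals, was raised to it. Before scaling the 2 to 98% trimmed mean signal ran from 138 to 217 over the 5 arrays, with clinorotation at 176 and space flight at the highest. Of 17118 genes, 10075 had a mean log2 signal above the floor and were compared. Germ line, sperm, hypodermis, muscle, intestine and neuron markers were all present: 35 of 35 oocyte markers, 36 of 37 body wall muscle markers, 12 of 12 hypodermis markers, 44 of 52 intestine markers and 29 of 35 neuronal markers were above the floor. Of the embryo markers 13 of 46 were. The gene groups and the genes named were chosen with earlier results of these data known.

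Space flight and clinorotation differed at least 2-fold at 987 genes. Space flight was at least 2-fold higher at 451 genes (4.48% of those compared) and at least 2-fold lower at 536 (5.32%). The 2 ground controls, both at 1 G, differed almost as much, at 857 genes, with the operation site at least 2-fold higher at 446 (4.43%) and at least 2-fold lower at 411 (4.08%). The larger differences were 4-fold or more at 107 genes higher in flight and 68 lower, and 8-fold or more at 6 and 14. At 5221 genes, 51.8%, the larger of the flight and clinorotation signals exceeded the smaller by less than 25%. The median difference over all genes was 0.05 (log2, flight minus clinorotation).

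Most of the difference between flight and clinorotation ran in the direction of the difference between the controls. Of the 987 genes, 499 (50.6%) also differed at least 2-fold the same way between the operation site and Tsukuba, and 287 (29.1%) differed the same way by 1.5- to 2-fold. A further 196 (19.9%) differed between flight and clinorotation while the controls stayed within 1.5-fold of each other, and 5 (0.507%) differed while the controls ran the opposite way by 1.5-fold or more. Seen from the controls, 58.2% of the genes 2-fold apart between them were 2-fold apart the same way between flight and clinorotation. Across the 10075 genes the 2 differences, which share no array but share the scaling and the floor, correlated at r = 0.740 (Spearman 0.630). Genes are not independent replicates, so this is a description. At 915 of the 987 genes, 92.7%, the flight signal was nearer to the operation site than to Tsukuba and the clinorotation signal nearer to Tsukuba.

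**Figure D1:**
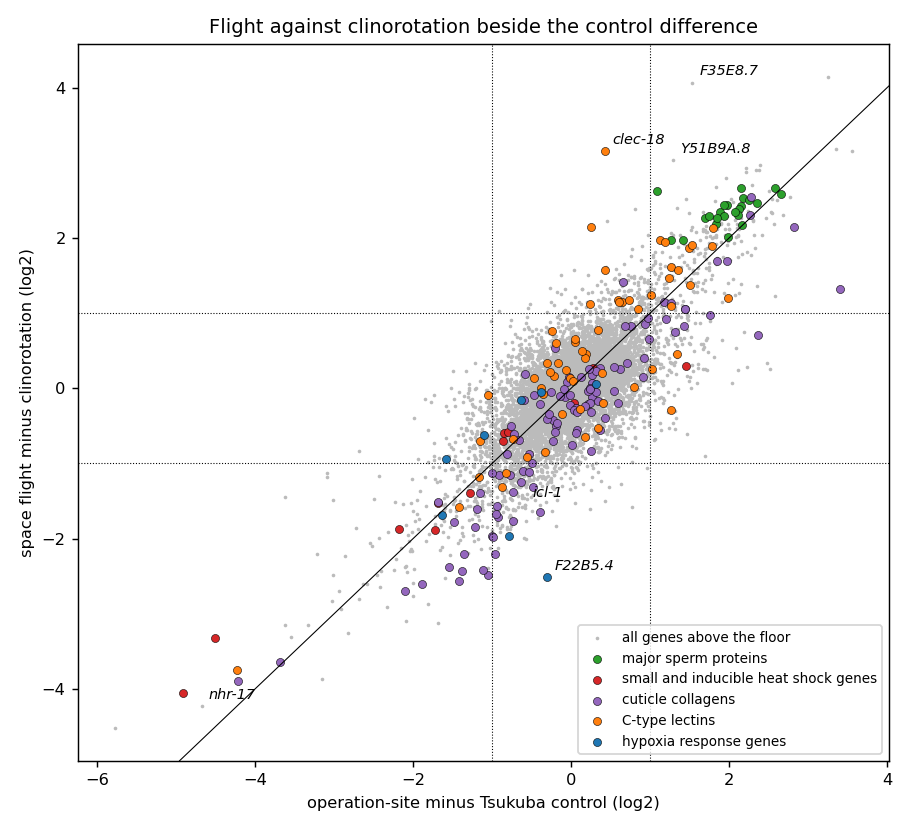
Each point is 1 of 10075 genes, with the log2 difference between the ground controls (operation site minus Tsukuba) on the x axis and that between space flight and clinorotation on the y axis. Dotted lines mark 2-fold and the diagonal marks equal differences. Major sperm proteins lie at the upper right and heat shock genes at the lower left, near the diagonal, while *clec-18* and *F22B5.4* lie near 0 on the x axis and past 2-fold on the y axis.

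Clinorotation and the Tsukuba control differed 2-fold at 52 genes, with r = 0.986 across genes, the fewest of the 10 pairs of arrays. Space flight and the operation-site control differed 2-fold at 179 genes (59 higher in flight and 120 lower), with r = 0.979. Across those pairs the counts were larger: 881 genes between clinorotation and the operation site and 1033 between space flight and Tsukuba. Hypergravity differed 2-fold from clinorotation at 161 genes and from space flight at 958. The 987 genes between real and simulated microgravity were thus close in number to those between either of these arrays and the control it resembled least.

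A test across genes was also run. limma, fitted to the 10075 genes with both ground controls as 1 group, called 0 genes (0%) between flight and clinorotation at a Benjamini-Hochberg adjusted p under 0.05. The smallest adjusted p of limma was 0.906. At an unadjusted p under 0.05 limma counted 168 genes, where 503.75 would be expected by chance. Its only residual degree of freedom is the difference between the controls, which come from different sites, so the sections below give sizes. The numbers of genes past 2-fold ran from 164 to 942 higher and from 257 to 930 lower over the scalings, floors and probe set rules tried. Without scaling the split became 72.6% higher and 27.4% lower, against 45.7% and 54.3%.

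Sperm genes made up the group that was highest in flight relative to clinorotation. Major sperm proteins form the motile cytoskeleton of nematode sperm and are also the signal by which sperm trigger oocyte maturation. In hermaphrodites they are made for a short time around the last larval stage. All 23 of 23 measured *msp* genes were at least 2-fold higher in flight than in clinorotation, by 1.97 to 2.67 (log2) with a median of 2.35. All 23 were also at least 2-fold higher at the operation site than at Tsukuba, with a median of 1.99. The median *msp* signal was 2016 in the operation-site control, 559.6 in the Tsukuba control, 2283 in space flight, 465 in clinorotation and 693 in hypergravity. Flight and the operation site were thus high and the other 3 arrays low, without overlap between these sets for this median. *msp-63* read 695 in flight and 109 in clinorotation, a 6.37-fold difference, beside 693 at the operation site and 156 at Tsukuba. For *msp-32* the flight signal was 572 and the clinorotation signal 92.6, beside 381 and 179 in the controls, so that flight lay above both controls and clinorotation below both. A second *msp-32* probe set was at the floor in both flight and clinorotation. Over the family, flight was above both controls at 17 of the 23 genes and clinorotation below both at 22. The share of all genes above or below both controls was not counted, here or for the lists below. All 23 were read by probe sets that may bind several transcripts, so the near-identical members of the family cannot be told apart.

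Other genes of sperm followed. Of 36 measured sperm genes outside the *msp* family, 26 were at least 2-fold higher in flight and 0 lower, with a median of 1.61 beside 1.32 between the controls. *gsp-4*, a sperm protein phosphatase, read 233 in flight and 36.5 in clinorotation, with the controls at 204 and 56.9. The sperm gene *gipc-2* read 243 and 42.4, with the controls at 263 and 45.1. Outside the sperm list, *cyc-2.2*, a cytochrome c gene, read 99.2 in flight and 110.4 at the operation site and was at or next to the floor, at 25.6 or less, on the remaining 3 arrays. Some of the genes with the largest differences had the same pattern. *scl-24*, which encodes an SCP-like secreted protein, read 1329 in flight and 146 in clinorotation, 9.13-fold apart, beside 1613 and 157 in the controls.

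Oocyte and germ line genes were higher in flight in nearly every case but never by 2-fold. Of 35 oocyte and maternal regulators 33 were higher in flight than in clinorotation, with a median of 0.27 (0.20 between the controls). Of 26 germ granule and meiosis genes 25 were higher, with a median of 0.40, equal to that between the controls. The germ granule helicase gene *glh-1* read 1289.6 in flight and 704 in clinorotation, beside 1306 and 645 in the controls. *htp-1*, a protein of the meiotic chromosome axis, read 762 against 433, beside 549 and 415. Its flight signal lay above every other array. *oma-1*, a regulator of oocyte maturation, read 814 against 589.9, beside 676 and 605. The yolk protein genes *vit-2*, *vit-4*, *vit-5* and *vit-6* differed by at most 0.33 (log2) between flight and clinorotation, the most at *vit-6* with 5242 and 4181. A dimmer probe set of *vit-4* read 49.1 in flight and 219.8 in clinorotation, a difference of -2.16, beside -3.02 between the controls. The low *vit-1* (166 in flight, 76.2 in clinorotation, 82.7 and 118.9 in the controls) was the 1 of 5 measured yolk genes past 2-fold. DNA repair genes were higher in flight at 33 of 36, with a median of 0.22, smaller than the 0.33 between the controls. DNA replication genes were higher at 24 of 30, with a median of 0.19 beside 0.04 between the controls. Of either list 0 passed 2-fold. Argonautes and RNA interference genes had a median of 0.38, beside 0.23 between the controls. At least 2-fold higher were 2 of 49 (4.08%), near the 4.48% over all genes, and 1 between the controls. Among the 2 was *wago-2*, a worm-specific Argonaute (227 against 113).

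**Figure D2:**
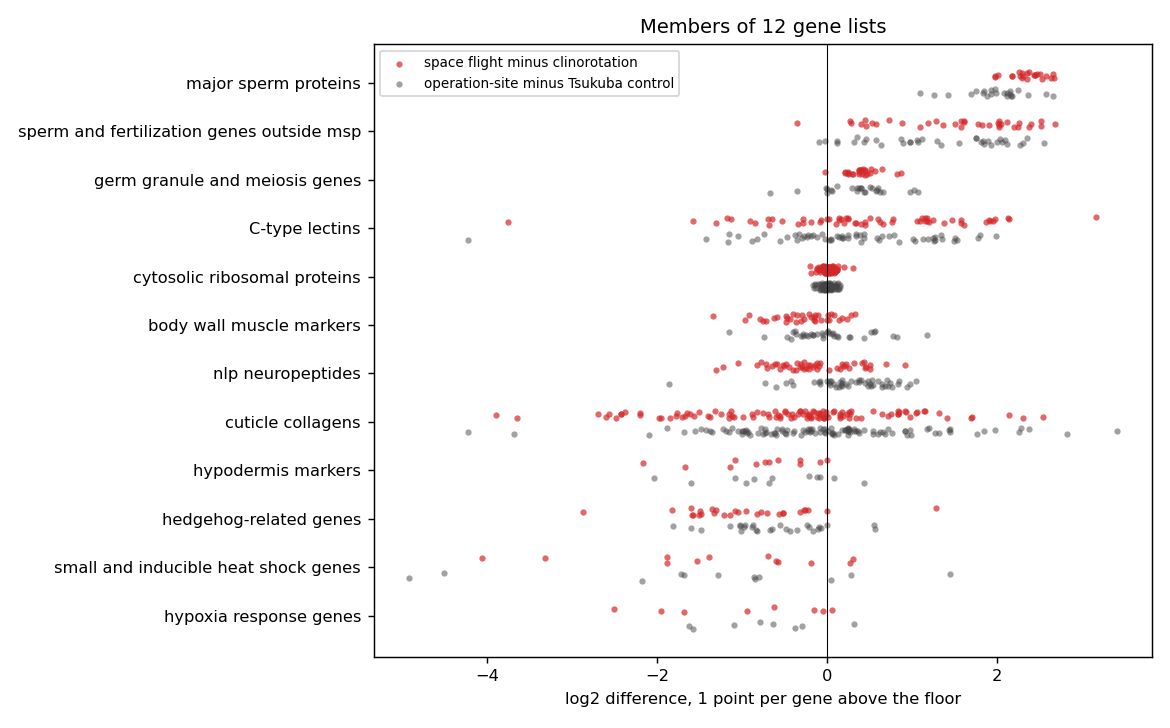
Each point is 1 gene above the floor in 1 of 12 gene lists, with the log2 difference between space flight and clinorotation in red and that between the ground controls in grey. Sperm genes lie to the right and heat shock and hedgehog-related genes to the left in both colours, cytosolic ribosomal proteins sit near 0, and body wall muscle and *nlp* genes lie farther left in red than in grey.

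Heat shock genes were the other large block, and they ran the opposite way. Small heat shock proteins hold misfolded proteins, and the *hsp-16* genes are almost silent in unstressed worms. *hsp-16.41* read 220.1 in flight and 3676 in clinorotation, 16.7-fold lower in flight. Its controls were as far apart, at 127 (operation site) and 3850.3 (Tsukuba), and hypergravity read 3664. The signals of *hsp-16.2* were 563 in flight and 5608 in clinorotation, beside 269.5 and 6148 in the controls and 5589 in hypergravity. Flight was thus above the operation site at both genes, and the other 3 arrays stood together far above. Of 12 measured small and inducible heat shock genes 6 were at least 2-fold lower in flight and 0 higher, with a median of -1.05 beside -1.07 between the controls. The 6 include *hsp-70* (2317 against 8549), *hsp-43* (319 against 1181), *hsp-16.21* (148 against 426) and *hsp-17* (577 against 1509). *hsp-12.2* read 548 in flight and 446 in clinorotation. It was higher at the operation site (955) than at Tsukuba (348), unlike most of the group. Among constitutive and organelle chaperones the median was -0.09, and 2 of 59 were at least 2-fold lower. These were *hsp-110*, an exchange factor for Hsp70 (774 against 5049), and *dnj-13*, an Hsp40 co-chaperone (886 against 3025), and both were as far apart between the controls (752 and 5739.8, and 1007 and 3950.3). A second probe set of *hsp-110* gave a smaller difference, -1.20 instead of -2.71.

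Genes of the epidermis and cuticle were mostly lower in flight than in clinorotation. The median difference was larger than that between the controls for hedgehog-related, collagen and moulting genes and about equal to it for cuticlins and hypodermis markers. Hedgehog-related genes encode secreted proteins, most of them expressed in epidermal cells. Of 28 above the floor 15 were at least 2-fold lower in flight and 1 higher, with a median of -1.07 beside -0.66 between the controls, at which 7 passed 2-fold. *grl-23* read 104.4 in flight and 761 in clinorotation, 7.29-fold lower, with the controls at 240.3 and 843. *grl-20* read 677 against 2385 with controls at 1314 and 2410.4, and *grd-10* 204 against 618 with controls at 372 and 729. In all 3 genes flight was the lowest of the 5 arrays. Over the group, flight lay below both controls at 26 of 28 genes and clinorotation at 2, with no count over all genes beside them. The exception, *grl-14*, read 60.5 in flight and was at the floor in clinorotation.

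Cuticle collagens split into genes higher and genes lower in flight. Of 110 above the floor 31 were at least 2-fold lower and 11 at least 2-fold higher, and the median was -0.23. Between the controls 15 were 2-fold lower and 15 higher, with a median of -0.02. Without scaling the collagen median was 0.02, so it is below 0 relative to all genes only. The farthest lower were *dpy-14* (38.7 against 576), *dpy-17* (73.6 against 923), *col-44* (31.7 against 206) and *col-165* (46.3 against 280.1). At *dpy-14* and *dpy-17* the operation site was as low as flight, at 24.9 (the floor) and 53.9, and Tsukuba read 465 and 696. The farthest higher collagens, chosen after their values were seen, were *col-129* (296 against 51.1) and *col-38* (179.9 against 36.6), which the operation site also had high. *col-19*, used widely as an adult-specific collagen marker, read 278 against 134, beside 332 and 122.8 in the controls. In flight itself 73 of the 110 collagens were lower than in clinorotation. After subtraction of the control difference the remainder, which draws on 4 arrays, was below 0 at 88, with a median of -0.35. Flight lay below both controls at 71 of the 110 and clinorotation at 49. *rol-6* was a collagen at which both did, as given further below.

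Moulting genes, cuticlins and hypodermis markers also had medians below 0. Of 22 moulting genes 18 were lower in flight and 4 at least 2-fold lower (median -0.49, controls -0.19). *mlt-8* read 60.5 in flight and 150.2 in clinorotation, with the controls at 139 and 135, so that flight alone was low. *bed-3* (25.7 against 58.5), *acn-1* (42.4 against 88.6) and *lin-42*, the worm counterpart of period (28.2 against 58.5), were the other 3. A second probe set of *acn-1* gave -0.51, short of 2-fold, with 0.83 between the controls. The second probe set of *lin-42* was at the floor on every array. Of 18 cuticlin and ZP-domain genes 4 were at least 2-fold lower, as were 4 between the controls, with medians of -0.38 and -0.40. They include *cut-1*, a component of the larval cuticle (113 against 423), *cut-5* (33.4 against 139.7) and *noah-2* (105.1 against 272). At all 3 the operation site (181, 46.9 and 164) was below Tsukuba (556, 127 and 326). *cut-3* was at the floor in flight and at the operation site and read 239 in clinorotation, at least 9.59-fold higher there. All 12 hypodermis markers were lower in flight, with a median of -0.71 beside -0.67 between the controls. *lin-26* was almost equal in the 2 arrays (-0.0, controls 0.43), and *vab-10* differed by -0.08. The furrow collagen gene *dpy-7* read 63.8 against 203 and *wrt-10* 104.8 against 231, and the epidermal transcription factor gene *elt-3* 307 against 382 on one probe set and 182.9 against 370.2 on another. Some of these markers are collagens or hedgehog-related genes counted above.

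Muscle and nerve genes differed by less, and the controls did not share the sign of their median difference or shared it only weakly. Of 36 body wall muscle markers 27 were lower in flight than in clinorotation, with a median of -0.24 beside -0.05 between the controls, and 1 was at least 2-fold lower. That gene, *tni-1*, encodes a troponin I and read 203 against 514, beside 262 and 587 in the controls. The troponin T gene *tnt-3* read 111 in flight and 218 in clinorotation, with the controls together at 207 and 196. *unc-54*, which encodes the main myosin of the body wall, read 1673 against 1929, and *unc-15*, paramyosin, 2212 against 2431. *myo-3*, its partner myosin, read 241 in both. Flight lay below both controls at 28 of the 36 markers and clinorotation at 15. Without scaling the median of the list was 0.04, so its lower level holds relative to all genes only.

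The pharyngeal list had medians of opposite sign in the 2 comparisons, although its members were split. The signs of the 2 differences were opposite at 26 of its 63 genes. Most of the 63 are *pqn* genes, which were not checked for pharyngeal expression, so the list is not a reading of pharyngeal muscle alone. Of the 63 genes, 40 were lower in flight than in clinorotation, with a median of -0.12. The operation site was higher than Tsukuba with a median of 0.28, and was at least 2-fold higher at 13 genes and lower at 0. Past 2-fold between flight and clinorotation, 3 genes were higher and 3 lower, each with the sign of its control difference. Examples are *phat-3* (99.01 against 29.8, controls 126.7 and 35.3) and *pqn-18* (88.4 against 257.7, controls 122.7 and 233.1). The pharyngeal myosin gene *myo-2* had the most negative such contrast of all 10075 genes, and was named after its values were seen. It read 675 at the operation site, 208 at Tsukuba, 212 in flight, 397 in clinorotation and 189 in hypergravity. Its difference between flight and clinorotation was -0.91 and that between the controls 1.70, a difference of -2.60 between them. *myo-1*, the second pharyngeal myosin, had the same order of signs, at 324 in flight and 461 in clinorotation with controls at 814 and 427. So had *myo-5* (-0.48, controls 0.76), *tni-4* (-0.40, controls 1.32) and *tnt-4* (-0.55, controls 1.13). The troponin C gene *tnc-2* had not, at 0.04 beside 1.16. Medians of opposite sign were also found in the neuropeptide families. The *flp* genes, which encode FMRFamide-related peptides, had a median of -0.22 (15 of 23 lower in flight) and the *nlp* genes a median of -0.22 (33 of 50 lower), beside 0.20 and 0.26 between the controls. *flp-17* read 130.3 in flight and 277 in clinorotation with the controls at 214 and 201. *nlp-33*, an epidermal antimicrobial peptide gene, read 127 against 262 with both controls at 268. Such *nlp* genes are also counted among the antimicrobial effectors, so the *nlp* median is not that of nerve genes alone. Neuronal markers had a median of -0.20, with 20 of 29 lower and 0 past 2-fold. Without scaling the medians of these 4 lists lay between 0.09 and 0.18, so here too the lower values are relative to all genes.

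Stress and metabolic genes included several at which clinorotation, not flight, stood away from the controls. *F22B5.4*, known as a target of the hypoxia-inducible factor HIF-1, read 75.8 in flight, 82.9 and 102 in the controls, 432 in clinorotation and 373 in hypergravity. Flight and both controls were thus together, and clinorotation was 5.70-fold above flight. *phy-2*, a prolyl hydroxylase subunit that modifies collagen and is also induced through HIF-1, read 97.1 in flight and 378 in clinorotation, with the controls at 116 and 201 and hypergravity at 414. *cysl-2* (133 against 428) was as far apart between the controls (153 and 472). Of the 8 hypoxia genes measured 3 passed 2-fold, all lower in flight (37.5%, against 9.80% over all genes). Between the controls 3 also passed it, all lower at the operation site. The medians were -0.78 and, between the controls, -0.72. Clinorotation lay above both controls at 2 of the 8 genes and flight below both at 4. *nhr-57*, another HIF-1 target used as a reporter, read 186 in flight against 192 in clinorotation. The inducible superoxide dismutase gene *sod-5* read 319 in flight and 1038 in clinorotation, with the controls at 274 and 621 and hypergravity at 429, so clinorotation was the highest array.

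Among metabolic genes *icl-1*, the enzyme of the glyoxylate cycle that turns fat into carbohydrate, read 2041 in flight, the lowest of all arrays, against 5994 in clinorotation, 3819 and 5707 in the controls and 5790.4 in hypergravity. Its other probe sets gave -1.41 and -1.03 (log2) beside -1.55. It was the 1 of 23 genes of the TCA and glyoxylate cycle past 2-fold, and the median of that list was 0.10. In fat metabolism 5 of 68 genes were at least 2-fold lower and 2 higher, with a median of 0. Between the controls 3 were lower and 3 higher. The share past 2-fold, 10.3%, was near the 9.80% over all genes. The largest difference of the list, 2.08, was at a gene higher in flight. The farthest lower, *elo-4*, read 83.3 against 216, with controls at 124 and 302. The acyl-CoA synthetase gene *acs-2* read 1453 against 3188, and the carnitine palmitoyltransferase genes *cpt-4* (55.7 against 123.5) and *cpt-6* (30.5 against 72.2) were lower as well. Second probe sets of *acs-2* (-0.79) and *cpt-4* (-0.93) did not reach 2-fold. *tdo-2*, the first enzyme of tryptophan breakdown through kynurenine, read 169 in flight and 499 in clinorotation, with the controls at 304 and 456. Glycolysis genes had a median of -0.18 with 0 of 19 past 2-fold, and respiratory chain genes a median of 0.11. Cytosolic ribosomal proteins had a median of 0.00 over 75 genes, with every member between -0.20 and 0.30.

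Detoxification and surface genes differed in both directions. Of 60 C-type lectin genes, which encode secreted carbohydrate-binding proteins, 22 were at least 2-fold higher in flight and 5 lower. The median of the lectin genes was 0.42, beside 0.22 between the controls. *clec-47* read 2995 against 683, with the controls at 2109 and 606, and *clec-85* 336 against 85.4, with controls at 257 and 117. The farthest lower, *clec-266*, read 33.4 against 451, beside 26.5 and 498. Of 51 antimicrobial effector genes 8 were at least 2-fold higher and 5 lower (25.5%), beside 5 and 4 between the controls. The lysozyme genes *lys-2* (1809 against 496, controls 1867 and 565) and *lys-3* (65.2 against 234.9, controls 70.1 and 203.2) differed in opposite directions, each in the direction of its controls. Of 50 UDP-glycosyltransferases, which conjugate small molecules, 12 were at least 2-fold lower and 3 higher, beside 3 and 2 between the controls. *ugt-13* read 309 against 957, with the controls at 646 and 909, within 1.5-fold of each other. At *ugt-14* (45.9 against 176) the controls were almost as far apart, at 46.3 and 162. Among 43 cytochrome P450 genes 5 were at least 2-fold higher and 4 lower (20.9%), beside 2 and 3 between the controls. *cyp-13B1* read 169 against 741 (a second probe set gave -2.21, beside -2.13). *daf-9*, a P450 that makes the steroid ligand of the dauer receptor, read 124.98 in flight and 27.9 in clinorotation, with the controls at 115 and 35.1. The insulin-like peptide gene *ins-5* read 141 against 28.9, with controls at 181 and 51.96. It was the 1 of 15 insulin-like genes past 2-fold, although 6 passed it between the controls. Of 136 nuclear hormone receptor genes 6 were at least 2-fold higher and 5 lower, shares no larger than the 4.48% and 5.32% over all genes. *nhr-17* had one of the largest differences of any gene, at 73.01 in flight and 1374 in clinorotation, 18.8-fold lower, beside 83.8 and 2143 in the controls.

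**Figure D3:**
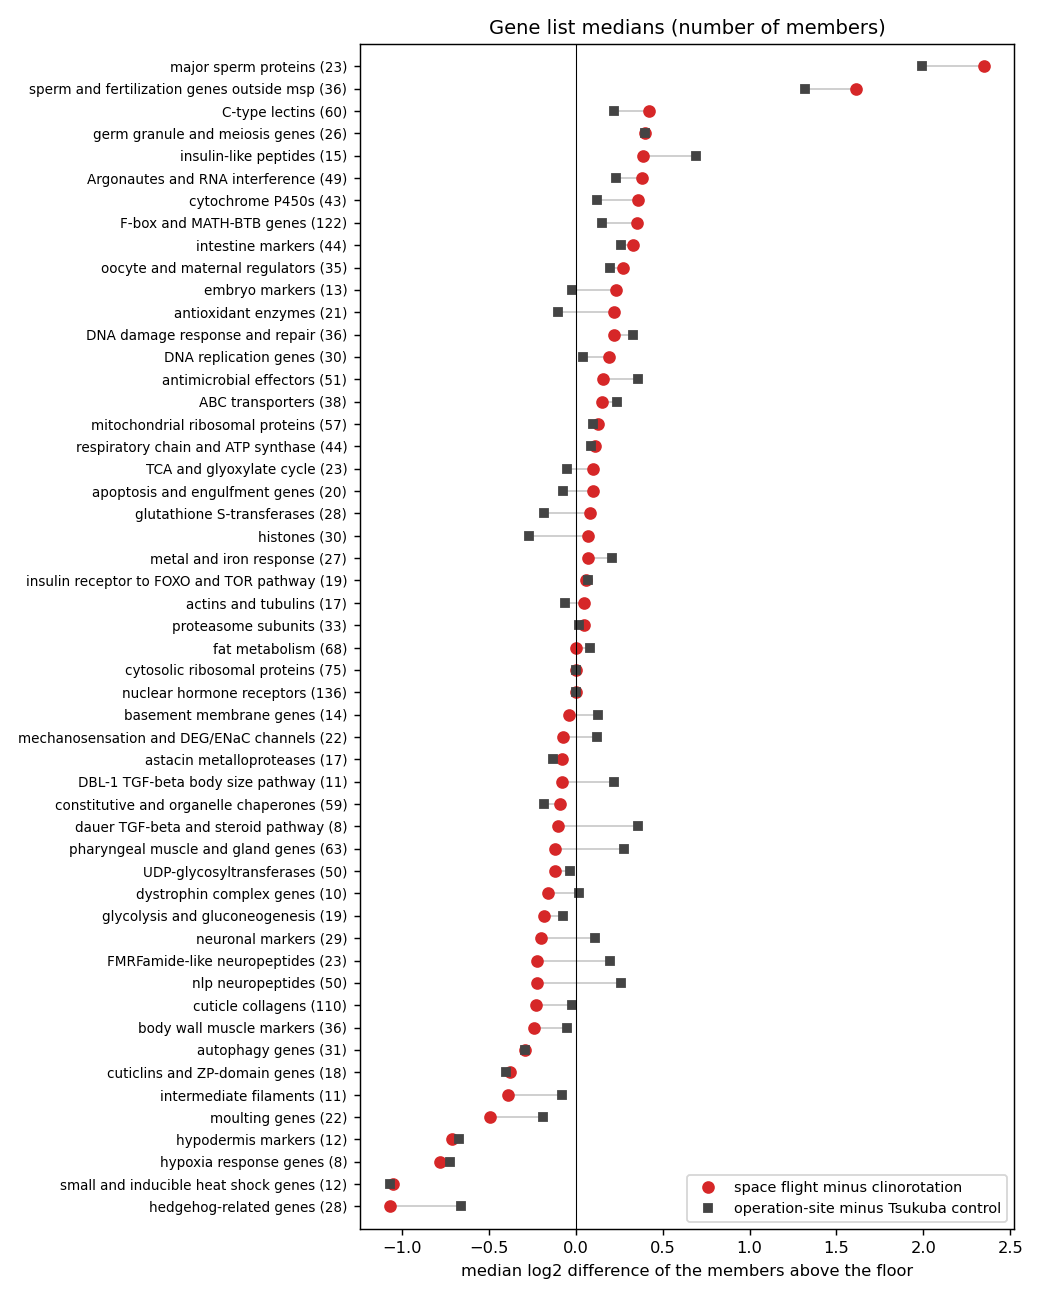
Median log2 difference of the members above the floor of each gene list with at least 8 of them, for space flight minus clinorotation (red circles) and for operation site minus Tsukuba (dark squares); numbers in brackets count the members. The sperm lists are far right in both and the hedgehog-related, heat shock and hypoxia lists far left, while the *flp*, *nlp*, pharyngeal and neuronal lists have their marks on opposite sides of 0.

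Some large differences in the direction of the controls lay outside these groups, although *nhr-17*, *hsp-16.41* and *dpy-14*, given above, differed by as much. *F35E8.6* read 764 in flight and 43.05 in clinorotation, 17.7-fold apart, with the controls at 263 and 27.7. *F35E8.7* read 471 against 28.1, with controls at 125.05 and 43.2. *Y51B9A.8* read 3188 against 387, with controls at 761 and 311 and hypergravity at 751, so that flight was far above every other array. In the other direction *cest-24*, a carboxylesterase gene, read 75.3 in flight and 1099 in clinorotation, with controls at 106 and 945. *nurf-1*, a chromatin remodelling subunit, read 301 against 2683 on one probe set, with a difference of -3.16. On another probe set its difference was -0.48. *R11A5.3* was at the floor in flight and at the operation site and read 574 in clinorotation, at least 23.02-fold higher there. One of the arrays was at the floor at 103 of the 451 genes higher in flight and at 86 of the 536 lower, so their folds are lower bounds.

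Genes that differed between flight and clinorotation while the controls lay within 1.5-fold of each other numbered 76 higher and 120 lower in flight. Among the 76, flight alone was above both controls by 25% or more at 24, both controls exceeded clinorotation alone by 25% or more at 25, both at 22 and neither at 5. Among the 120, flight alone was below both controls at 68, clinorotation alone above both at 23, both at 28 and neither at 1. Flight was thus the array that departed more often where flight was lower.

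*clec-18*, a C-type lectin gene, was the farthest higher of these. It read 315 in flight, 35.3 in clinorotation, 85.2 at the operation site, 63.05 at Tsukuba and 107 in hypergravity, so that flight was 8.92-fold above clinorotation and the 2 lay on opposite sides of the controls. *Y26D4A.21* read 134 in flight, with controls at 48.6 and 35.5 and clinorotation at 28.5. *clec-57* read 106 against 35.5, with controls at 51.004 and 37.98, and a second probe set gave 0.80 instead of 1.57. *dhs-26*, a short-chain dehydrogenase gene, read 147 against 48.7, with controls at 104.7 and 70.4. *moa-2* was the brightest of the 12 named here, at 804 in flight against 290.5, with controls at 434 and 296. *mib-1*, the counterpart of the Mind bomb ubiquitin ligase, differed through clinorotation instead, which read 31.02 against 84.8 in flight and 90.04 and 61.7 in the controls. *sft-1* also was low in clinorotation (31.2) while flight read 78.5 and the controls 54.9 and 66.1. The other 5 were *slc-9B.2*, *F35F10.5*, *nspa-9*, *Y105C5B.15* and *Y105C5A.24*, which read between 73.9 and 149 in flight and between 25.9 and 57.3 in clinorotation.

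Lower in flight, after *F22B5.4*, came *C18H9.5*, at 52.2 in flight and 185 in clinorotation with controls at 96.95 and 111, on opposite sides of them. The collagen gene *col-37* read 378 in flight, 1189 in clinorotation and 813 and 1063 in the controls, so that flight alone was low. *F15E6.3* read 27.6 in flight and 84.1 in clinorotation, with controls at 100.02 and 84.97, and a second probe set gave -0.88 beside -1.61. *F38B7.2* read 144 in flight and 409.9 in clinorotation, with controls at 425 and 531. *dach-1* read 29.8 in flight and 25.4 in hypergravity against 102 in clinorotation, with controls at 69.6 and 103. *svh-5* (91.4 against 302, controls 138 and 184) and *xbx-3*, a gene with a cilia-type X-box promoter element (40.4 against 116, controls 68.7 and 66.1), lay on opposite sides of the controls. *R05A10.1* read 41.2 against 127, and its other probe set was at the floor on every array.

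**Figure D4:**
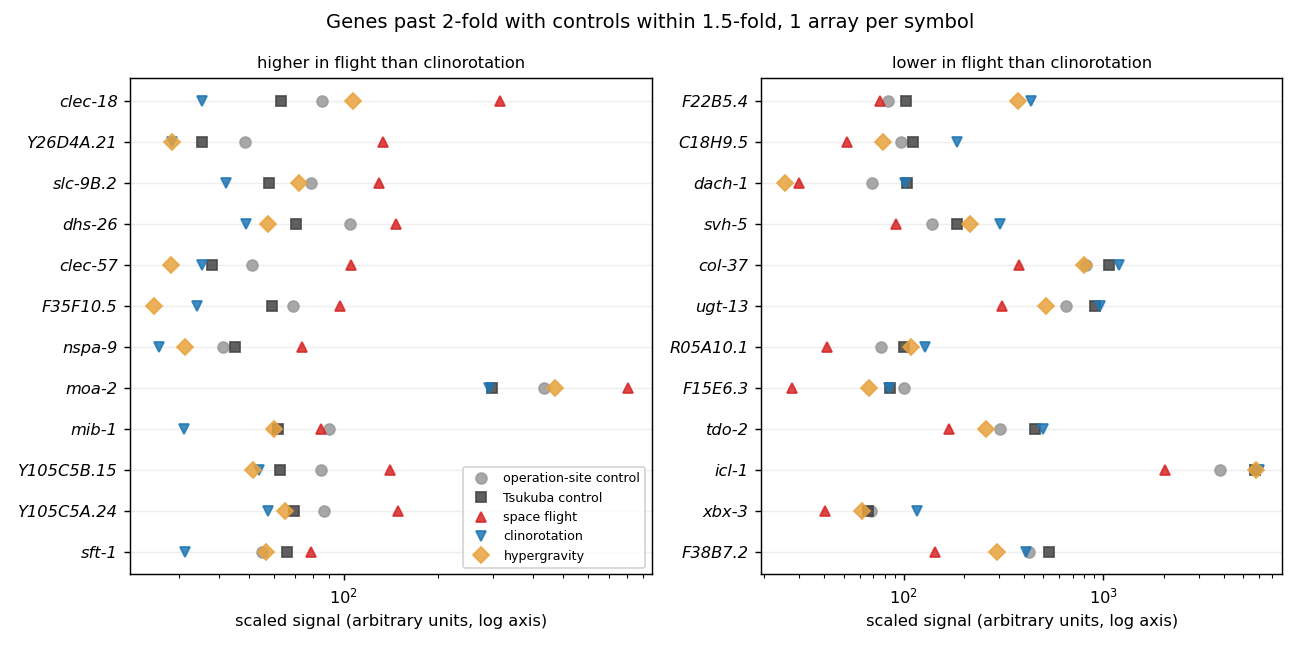
Scaled signal on a log axis in each of the 5 arrays for 12 genes higher and 12 lower in space flight than in clinorotation whose ground controls lie within 1.5-fold. The flight triangle of *clec-18* stands at 315 and its clinorotation triangle at 35.3, with the controls between, while for *F22B5.4* flight and both controls lie together at 102 or less and clinorotation and hypergravity stand at 432 and 373.

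Flight and clinorotation lay on opposite sides of both controls, with every higher signal exceeding the lower by 25% or more, at 46 genes with flight above (0.457% of those compared) and at 44 with flight below (0.437%). *rsks-1*, the S6 kinase of the TOR pathway, was among the latter: it read 45.3 in flight and 115 in clinorotation with the controls together at 75.3 and 76.0. It was the 1 of 19 genes of the insulin and TOR pathway past 2-fold. The potassium channel gene *twk-8* read 38.4 against 137, with controls at 52.6 and 89.3, and *dpsm-1* 370.3 against 1944, with controls at 672 and 1394. *scm-1*, a secretory carrier membrane protein gene, read 48.4 against 98.8, but a second probe set read 71.4 and 76.6 and did not show the difference. *B0348.2* read 26.03 against 73.003. With flight above, after *clec-18*, *nspa-9* and *F35E8.7*, *C30G12.2* read 167 in flight and 31.98 in clinorotation, with controls at 108 and 61.7, and *Y39G8B.7* 233 against 40.5, with controls at 162 and 58.8.

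Subtracting the control difference from the flight-clinorotation difference left 173 genes at least 2-fold up (1.72%) and 244 at least 2-fold down (2.42%). The SD of the log2 difference over genes went from 0.64 to 0.45. At 5 genes flight and clinorotation were 2-fold apart while the controls ran the opposite way by 1.5-fold or more. *F54F7.2* read 121 in flight and 59.4 in clinorotation, with controls at 55.6 and 104.2, so flight was near Tsukuba and clinorotation near the operation site. The reverse pattern was that of *dhs-5* (43.3 against 105.2, controls 82.4 and 53.1), *Y67H2A.9* (37.3 against 78.0, controls 81.4 and 41.7) and *C36C5.12* (30.1 against 90.1, controls 42.5 and the floor). The fifth, *F40E10.5*, was at the floor in flight and read 51.7 in clinorotation, with controls at 42.9 and 28.6, and was named after its values were seen. For *Y67H2A.9* a second probe set was at the floor in both.

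Genes at which real and simulated microgravity resembled each other and departed from the controls were few. At 8 genes (0.0794%) flight and clinorotation were both at least 1.5-fold above both controls, and at 11 (0.109%) both were at least 1.5-fold below. Both comparisons use the same control arrays. *T25B9.8* read 207 in flight and 152 in clinorotation, with controls at 66.6 and 48.9 and hypergravity at 82.0, and a second probe set read 64.9 and 66.6 with controls at 37.1 and 47.6. The ribosomal RNA gene *rrn-3.56* read 123.5 and 149.5, with controls at 55.2 and 39.6. *algn-11*, a mannosyltransferase gene of protein glycosylation, read 276 and 303, with controls at 168 and 175 and hypergravity at 195. *ost-1*, the worm SPARC protein of basement membranes, read 1692 and 1429.7, with controls at 949 and 860.5 on one probe set, but 771 and 995 with controls at 875 and 978 on another. *set-24*, a SET domain gene, read 163 and 138, with controls at 89.8 and 91.8 and hypergravity higher still at 202. A second *set-24* probe set read 121.3 and 101.4 with controls at 94.7 and 93.03, and another was at the floor on every array. *txt-9* read 107 in both, with controls at 51.3 and 61.1. *mlt-10* and *spat-1* made up the 8, at signals between 39.6 and 55.6, and their other probe sets did not place both arrays above both controls.

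On the low side, *fmo-2*, a flavin-containing monooxygenase gene, read 71.3 in flight and 85.3 in clinorotation, with controls at 148 and 164 and hypergravity at 173. *fkb-5*, a peptidyl-prolyl isomerase gene, read 99.5 and 118, with controls at 199 and 208 and hypergravity at 168. *rol-6*, a cuticle collagen gene, read 128.5 and 160.1, with controls at 268 and 253, but hypergravity was lower still at 94.4. The antimicrobial peptide gene *nlp-31* read 226 and 273, with controls at 555 and 426 and hypergravity at 217. The lectin gene *clec-72* read 44.4 and 53.9, with controls at 101 and 93.8 (a second probe set was at the floor in flight, clinorotation and the Tsukuba control), and the F-box gene *fbxc-45* 39.3 and 40.6, with controls at 65.6 and 82.9. *scl-3* (60.4 and 58.7, controls 99.5 and 93.0) and *F42A10.7* (586 and 486, controls 1530.2 and 939.7) were also low in hypergravity, at 37.1 and 648. Hypergravity was therefore on the same side as flight and clinorotation at *rol-6*, *nlp-31*, *scl-3* and *F42A10.7*, and between or near the controls at *fmo-2*, *clec-72* and *fbxc-45*.

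**Figure D5:**
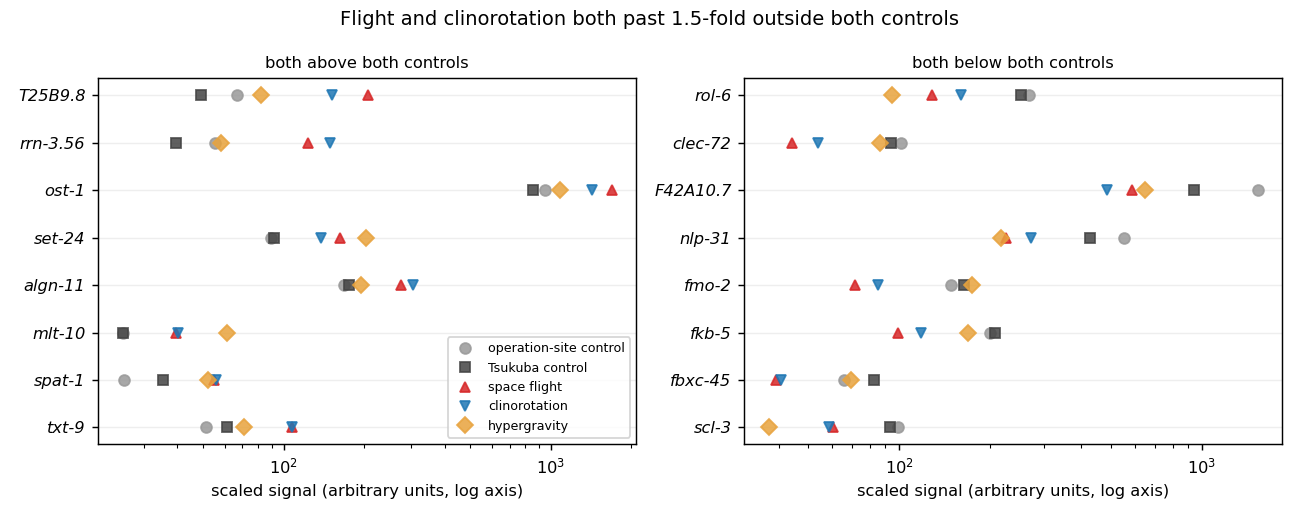
Scaled signal on a log axis in each of the 5 arrays for 8 genes at which space flight and clinorotation were both at least 1.5-fold above both ground controls and 8 at which both were at least 1.5-fold below. The flight and clinorotation marks lie side by side, and at *fmo-2* hypergravity (173) lies with the controls (148 and 164) while at *rol-6* it is lowest (94.4).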

How the data were processed

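Per the labels' protocols, biotinylated cRNA was made from 15 µg of ISOGEN-extracted total RNA per group. The authors deposited linear intensities, 1 per probe set, from 0.1 to 13519.3. The summary method is not given here. Of 22548 probe sets, 20766 with 1 gene symbol in GEO's platform annotation were used, 887 with several and 895 not listed were left out. The RefSeq gene table (WBcel235) held the identifier of 20701 and changed 0 names. For 2981 genes with several probe sets the brightest was used.

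Arrays were quantile scaled on the log2 scale, floored at the 40th percentile (24.9), and log2 was taken. Genes whose mean log2 signal before flooring exceeded the floor entered all counts. Space flight and clinorotation were compared by size, beside the difference between the ground controls. They were also compared by limma 3.58.1 in R 4.3.3 (lmFit, eBayes with trend, two-sided), which has 1 residual degree of freedom. Recovery of known changes by limma and by the size rule was tested on simulated data. The simulation gave every gene and array the same spread and held no difference between sites, so no conclusion about these arrays is drawn from it. The number of arrays limits the precision. Up to 12 genes per direction of each class and up to 4 per gene list were named by size of difference. A further 39 genes were added once their values had been seen. *lin-26*, *vab-10*, *myo-5*, *tni-4*, *tnt-4* and *tnc-2* are list members outside both sets. They were not among the named genes followed under the alternatives. The genes and all 54 lists were chosen with earlier results of these data known. The first version computed scaled on the linear scale and filtered on the mean after flooring. Both were replaced after their counts were seen, because that filter admits a gene through 1 high array and because the log2 scale matched the signals of an earlier description of these data. Both are among the alternatives. Scaling, floor, pseudocount, probe set rule and fold threshold were varied.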

Additional observations from a re-analysis of the deposited data

How the results depend on the processing

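No paired analysis was possible because every group has 1 array. Genes at least 2-fold higher in flight than in clinorotation (451) became 855 without scaling, 942 and 164 with the floor at percentile 20 and 60, 254 as log2(signal + 32), and 1110 and 185 at fold thresholds of 1.5 and 3. Those lower (536) became 323, 930, 257, 286, 1352 and 163 in that order. Genes also 2-fold apart the same way between the controls (499) became 859, 245 and 303 with the 2 floors and the pseudocount, 331 without probe sets that may bind several transcripts, and 286 at 3-fold. Genes with controls within 1.5-fold (196) became 331, 512, 65, 82, 1077 and 16 in the first order. The following counts were varied after the data were seen. Genes alike in flight and clinorotation (19) became 168, 126, 11 and 6 without scaling, with the 2 floors and with the pseudocount. The difference of differences became 293, 668, 57 and 47 up (173) and 135, 775, 85 and 74 down (244). The correlation (0.740) was 0.637 with the lower floor. With unscaled signals the all-gene median moved from 0.05 to 0.35, and list medians below 0 turned above it for collagens (0.02), body wall muscle (0.04), pharynx (0.18), neurons (0.11), *flp* (0.1), *nlp* (0.09), UDP-glycosyltransferases (0.2), glycolysis (0.03), autophagy (0.05) and the dystrophin complex (0.11). The coelomocyte and gonad sheath median (0.27) was -0.01 with the lower floor, with the median of probe sets and without shared probe sets. The embryo median (0.23) was -0.16 with the lower floor and -0.11 with the median of probe sets. The insulin-like median (0.39) was -0.02 with the higher floor and that of intermediate filaments (-0.39) 0.03 without shared probe sets. The first version's choices, tried again after the data were seen, gave 451 higher and 541 lower with linear quantile scaling and 491 and 543 with the filter after flooring, and reversed 0 of 54 list medians. The limits for calling a list median reversed (0.1 from 0) or a correlation moved (0.1) were also set after first results. limma called 0 genes with and without the trend. No named gene past 2-fold reversed under the alternatives run, but without shared probe sets only 146 of 208 named genes had a value. The causes were not tested. With 1 array per group, depth and replicate spread cannot be separated from the condition.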
